A study of Homo sapiens with 2 samples.

Results

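HHEX, MEIS1, MEIS2, PBX3, MECOM, PRDM16, HLF, MYCN and BMI1 are genes of stem cell self-renewal and leukemia, and the deposited LDB1 peaks of a leukemia cell line were searched around each of them. A peak counted for a gene when it overlapped, by at least 1 base, the GENCODE 44 gene body extended by 50 kb on each side. Of the 11046 peaks, 1 met this rule, and it lay in the first intron of HHEX. The other 8 genes had no peak in 2.4 Mb of sequence.

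CUT&Tag, in which an antibody directs a DNA-cutting and tagging enzyme to the bound protein, was performed on NB4, an established human acute promyelocytic leukemia line. The series held 2 libraries, both of NB4 cells. One was made with an LDB1 antibody from cells labelled as overexpressing LDB1, and the other with IgG from cells labelled untreated. The published CUT&Tag methods do not mention overexpression. As labelled, the effects of antibody and overexpression cannot be told apart. No group was replicated, so no test was made. The intervals given are Wilson 95% intervals that cover counting error only, and the depth behind each peak is unknown.

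LDB1 does not bind DNA itself. It bridges LMO proteins, which hold TAL1 or LYL1 and GATA factors on DNA, and brings distant elements together with promoters. The 9 genes are transcription factors or chromatin proteins of early blood progenitors, and several are overexpressed or joined to other genes in leukemia. HHEX, MEIS1, MEIS2 and PBX3 are homeobox factors, MECOM and PRDM16 are zinc finger factors of the PRDM family, HLF is a basic leucine zipper factor, MYCN belongs to the MYC family, and BMI1 is a subunit of Polycomb repressive complex PRC1.

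The sequence under the HHEX peak is shown first, since it is the single stretch in the windows that LDB1 was called on. Capitals mark, from left to right, a TAL1 E-box (CAGATG or CAGCTG), a RUNX motif (TGTGGT or TGCGGT, here read on the minus strand) and an AP-1 motif (TGAGTCA or TGACTCA). All sequences here are from hg38, and this stretch is on the plus strand.
HHEX intron 1, chr10:92690438-92690559: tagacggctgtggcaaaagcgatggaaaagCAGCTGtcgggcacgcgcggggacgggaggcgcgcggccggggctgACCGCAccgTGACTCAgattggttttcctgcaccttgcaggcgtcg

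The next stretches come from peaks outside the windows and hold the composite that LDB1 complexes are known for, here CTG, then 7 or 8 bases, then a GATA motif (AGATAA or AGATAG, and TGATAA or TGATAG). Both composites lie on the minus strand, so on the plus strand shown the GATA part reads TTATCA or TTATCT and the CTG part reads CAG. In the HHEX stretch the capitals also mark the GATA motifs beside the composite and 2 ETS motifs (AGGAAGT or CGGAAGT). The second ETS motif lies inside the composite and shares 1 base with its GATA part.
Downstream of HHEX, chr10:92756357-92756463: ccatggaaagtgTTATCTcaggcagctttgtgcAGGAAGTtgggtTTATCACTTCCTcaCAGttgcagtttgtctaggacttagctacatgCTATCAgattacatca
Downstream of HLF, chr17:55451421-55451497: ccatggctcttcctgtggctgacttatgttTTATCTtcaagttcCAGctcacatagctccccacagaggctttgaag

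The composite nearest to each gene start is also given, on its own strand and with the CTG and GATA parts in capitals, to show the letters present in the windows. Those of HHEX, MYCN, MECOM and PRDM16 lie in an intron of the gene, and those of the other genes lie before the gene start. None of them lay in a peak.
HHEX, chr10:92692791-92692807, minus strand: CTGagataacgTGATAA
MYCN, chr2:15944666-15944681, plus strand: CTGgtgattaTGATAA
PBX3, chr9:125745826-125745841, minus strand: CTGcaactccTGATAA
MECOM, chr3:169660959-169660975, minus strand: CTGccgctttcTGATAG
MEIS1, chr2:66429333-66429349, plus strand: CTGaaaacttaAGATAA
HLF, chr17:55260598-55260613, plus strand: CTGtccttagTGATAA
BMI1, chr10:22308608-22308624, minus strand: CTGagtcataaTGATAG
MEIS2, chr15:37119492-37119508, plus strand: CTGcagttaatTGATAA
PRDM16, chr1:3088687-3088703, minus strand: CTGagatcaggAGATAG

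HHEX, a homeobox repressor needed for early blood and endothelial development, had the peak in its window. The gene (ENSG00000152804.11) lies on the plus strand at chr10:92689955-92695647. The peak, chr10:92690346-92690881, was 536 bp long, longer than 61.7% of all peaks, whose median was 451 bp and whose quartiles were 314 and 666 bp. It ran from 391 to 926 bp after the gene start, with 2 bases in exon 1 and 534 in intron 1, and its midpoint was 658 bp after the transcription start site (TSS). This placed it just downstream of the promoter.

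The HHEX intron peak had a GC content of 68.3%, against a median of 51.4% over all peaks. In its central 200 bp it held the RUNX motif, found in 20.5% of all peaks, and the AP-1 motif, found in 9.5%. Over its whole length it also held 1 TAL1 E-box, as 60% of whole peaks did. It had no GATA motif and no composite, which 71.4% and 22.4% of whole peaks held. Its central 31 bases occurred once in hg38. In the central 200 bp alone, 47.1% of all peaks held GATA.

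HHEX also had the peaks nearest to the edge of a window, which describe what the 50 kb limit left out. A group of 3 peaks began 59.2 kb downstream of the gene, 9171 bp beyond the window, in intergenic sequence, and spanned 3401 bp with gaps of 396 and 324 bp. The nearest protein-coding TSS to each of the 3 was that of HHEX. The middle peak, chr10:92755506-92757590, was 2085 bp long, longer than 98.8% of all peaks, and 138 peaks were at least as long.

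That long peak downstream of HHEX held 6 GATA motifs, 1 composite, 3 TAL1 E-boxes, 4 RUNX motifs and 2 ETS motifs over its length. It also held 1 CEBP motif (TTGCNNAA). A longer stretch holds more motifs by its length alone, and hg38 held 245 GATA motifs per 100 kb. Of whole peaks of any length, 71.4% held GATA, 22.4% the composite, 60% the TAL1 E-box, 43% RUNX, 15.7% ETS and 19% CEBP. The composite lay at -138 bp from the midpoint, outside the central 200 bp, which held 1 whole GATA motif, 14 bp after the midpoint, while another lay across its edge. The peak on its far side, 304 bp long, had 1 GATA motif. The peak on its near side was 292 bp long and had RUNX and MEIS motifs (MEIS: TGACAG), and its central 31 bases occurred 10 times in hg38. The intron peak held no GATA motif and 2 of the 3 peaks of the downstream group did, beside 71.4% of all whole peaks. The intron peak was 536 bp long with 68.3% GC, and the long peak was 2085 bp with 45.1% GC. The part of length and GC content in this difference was not tested.

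**Figure D1:**
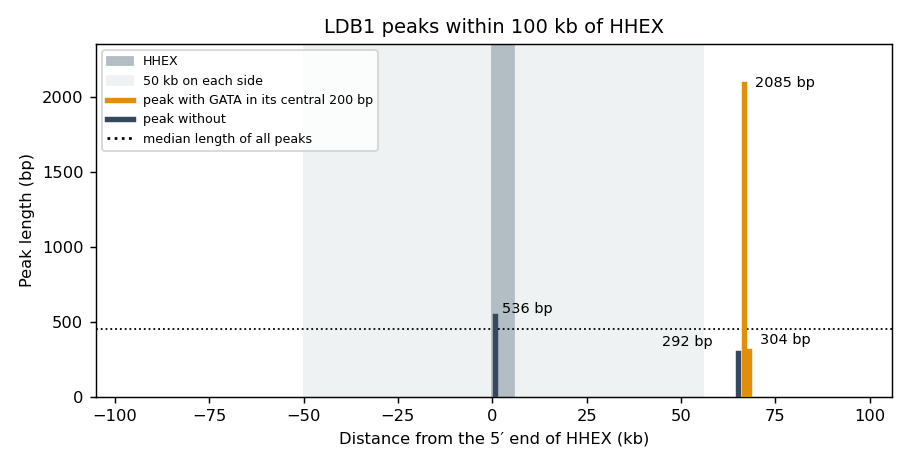
LDB1 peaks within 100 kb of HHEX, with the distance of the peak midpoint from the 5′ end of the gene (kb) on the horizontal axis and peak length (bp) on the vertical axis. The 536 bp peak stands in the gene, and the 2085 bp peak with its neighbours of 292 and 304 bp stands beyond the edge of the shaded window, while the upstream side is empty.

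Upstream of HHEX the next peak was 798 kb away. Within 500 kb on the downstream side there were 3 more, 2 in introns of EXOC6 (890 and 512 bp) and 1 that lay 1817 bp after the TSS of CYP26A1, a retinoic acid hydroxylase. The last of these, 454 bp long and 382 kb from HHEX, had a composite in its central 200 bp. The central 31 bases of the 512 bp peak occurred 1159 times in hg38, so its place is less certain than the others.

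The share of the 9 genes with a peak in the window, 1 of 9, was 11.1% (1.99 to 43.5%). With the same window, 8973 of 20033 protein-coding genes (44.8%) had one. The windows of the 9 genes covered 2.51 Mb, with 0.399 peaks per Mb, against 3.76 per Mb over the genome. At that genome density 9.42 peaks would fall in a stretch of this length. Smaller windows had to give the same count of 1 gene, since the peak lies in the gene body. This stood beside 19.7% of coding genes at 3 kb and 25.1% at 10 kb.

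From 50 to 100 kb the 9 genes came no closer to the others, and within 200 and 500 kb they did. Within 100 kb, 2 of 9 had a peak, beside 58.3% of coding genes, and within 200 kb, 5 of 9 beside 72.8%. Within 500 kb it was 7 of 9, beside 87.2%. The median distance to the nearest peak was 187 kb for the 9 genes and 66.9 kb for coding genes. The interval of the 9 genes held the share of all coding genes at 3, 10, 200 and 500 kb, and its upper end lay below that share at 50 kb (43.5%) and at 100 kb (54.7%). At 50 kb it held the mean shares of coding genes classed by GC content (35.4%) and by GC content and window length (36.1%), given below. The 9 genes were chosen with earlier results known, so these intervals are a description and not a test.

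**Figure D2:**
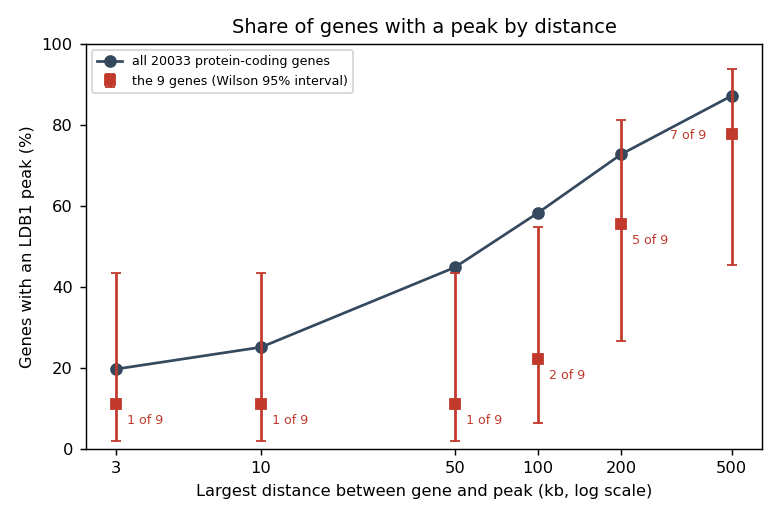
Percent of genes with an LDB1 peak (vertical axis) in or within the distance on the horizontal axis (kb, log scale), for all protein-coding genes (line) and for the 9 genes (squares, with Wilson 95% intervals). The squares stay at 1 of 9 up to 50 kb and reach 7 of 9 at 500 kb, below the line at each distance.

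GC content of the windows differed among the genes, and it moved with the presence of peaks over all genes. Coding genes were put in 5 classes of equal number by the GC content of the window, and the share with a peak was 22.2% in the lowest class, then 33.8, 43, 57.6 and 67.3%. MEIS1, MEIS2, MECOM and BMI1 fell in the lowest class, PBX3 in the next, HHEX, HLF and MYCN in the middle one and PRDM16 in the highest. The mean of these shares over the 9 genes was 35.4%, and 36.1% when genes were classed by GC content and window length together, compared with the 11.1% observed. The part of base composition in the low count was not tested.

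**Figure D3:**
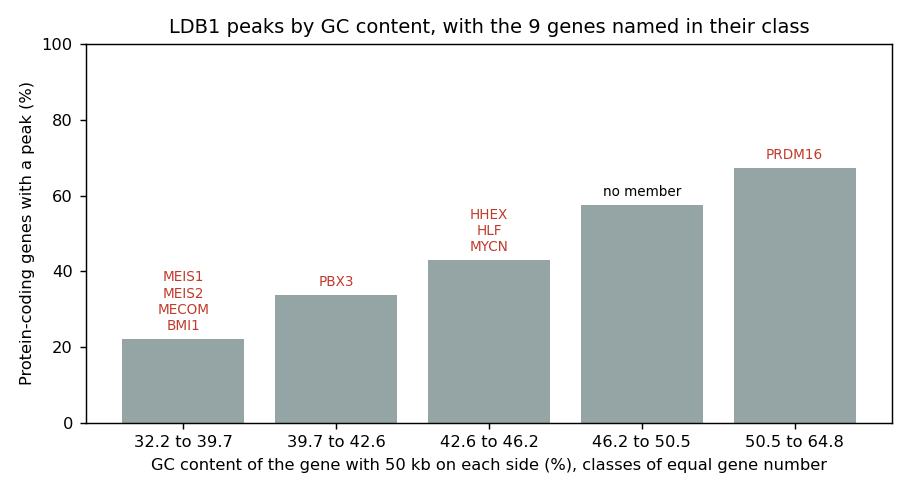
Percent of protein-coding genes with an LDB1 peak in or within 50 kb (vertical axis) in 5 classes by GC content of the window (horizontal axis, %). The names above the bars show that 4 of the 9 genes are in the lowest class, where 22.2% had a peak, and that PRDM16 alone is in the highest, where 67.3% did.

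Reads from repeated sequence cannot be placed with certainty, so the share of 31-base stretches that occur once in hg38 was counted in each window. It was 80.1% at HHEX, the gene with the peak, and 83.6% (MYCN) to 96% (PRDM16) at the other 8, against 82.4% over the genome. The part of repeated sequence in the missing peaks was not tested.

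MEIS1, which pairs with HOX and PBX proteins on DNA and drives leukemia together with HOXA genes, lay far from any peak. The nearest was 613 kb upstream, a 334 bp peak in an intron of the long non-coding RNA LINC02934 with none of the 11 motifs in its central 200 bp. The next on the other side was 1420 kb downstream. Of coding genes, 10.5% were at least as far from a peak. The MEIS1 gene lay in a peak-free stretch of 2170 kb, and 44% of the genome was in stretches at least as long.

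MEIS2, its close relative, lay in the longest such stretch of the 9, at 3640 kb, with 27.1% of the genome in stretches at least as long. Its nearest peak was 439 kb downstream, 380 bp long, with none of the motifs. Another 460 kb downstream (581 bp) had GATA, RUNX and AP-1 motifs in its central 200 bp. Upstream there was none for 2980 kb.

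PBX3, the PBX partner of MEIS proteins that is often high together with them in leukemia, had 6 peaks within 500 kb, all upstream. The nearest was 121 kb away in intron 4 of MAPKAP1, a subunit gene of the mTORC2 kinase complex, and was 343 bp long with RUNX and AP-1 motifs. A further 4, of 328 to 594 bp, lay in intron 9 of MAPKAP1, between 269 and 274 kb from PBX3. The sixth was a 1390 bp peak in GAPVD1, 462 kb away, with a composite outside its central 200 bp. On the downstream side the first peak was at 875 kb. The PBX3 peaks were thus on one side of the gene and within other genes.

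MECOM, which encodes the zinc finger oncoprotein EVI1, is the longest of the 9 genes, and its window of 680 kb held no peak. Of 266 coding genes with a window of similar length, 95 (35.7%) had one. The nearest peak was 694 kb upstream, an 843 bp peak whose midpoint lay at -364 bp from the TSS of SKIL, a repressor of TGF-beta signalling. On the other side, 926 kb downstream, a 358 bp peak held a composite. With MEIS1, MECOM was the gene without a peak inside 500 kb.

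PRDM16, the closest relative of MECOM, had the highest GC content of the windows, 57.2%, above that of 97.1% of coding genes. Its nearest peak was 187 kb downstream, 386 bp long and 592 bp after the TSS of TPRG1L. It had 7 peaks within 500 kb, 6 of them downstream and 4 within 3 kb of a TSS. The longest was a 2657 bp peak at SMIM1, the gene of the Vel blood group antigen, 335 kb from PRDM16, longer than 99.5% of all peaks and with GATA in its central 200 bp. Of the 7 peaks, 6 had their midpoint in an intron of another gene.

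HLF, a PAR family factor expressed in hematopoietic stem cells and fused to TCF3 in a form of acute lymphoblastic leukemia, had peaks on both sides. The nearest was 125 kb downstream in intron 4 of SMIM36, 1084 bp long, longer than 91.3% of peaks. It held 4 GATA motifs and the composite printed above, all outside its central 200 bp, where it had a MEIS motif. Its central 31 bases occurred 485 times in hg38. A 247 bp peak with 2 GATA motifs lay 127 kb downstream in the same intron, and its centre occurred once. Upstream, 403 kb away, a 1025 bp peak had a composite in its central 200 bp.

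MYCN, the MYC family member amplified in neuroblastoma, had 2 peaks within 500 kb, both upstream. The nearer was 302 bp long, 210 kb away in LINC01804, with TAL1 E-box and RUNX motifs in its central 200 bp. The other, 254 bp long with a GATA motif, had its midpoint 22 bp from a TSS of NBAS. Downstream there was no peak for 803 kb.

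BMI1, which keeps stem cells dividing as part of PRC1, came second to HHEX in nearness. Its nearest peak was 77.2 kb downstream in intron 9 of SPAG6 and 388 bp long. It had a MEIS motif in its central 200 bp, a TAL1 E-box outside them and no GATA, and its central 31 bases occurred 516 times in hg38. The others downstream were 4 peaks in or before PIP4K2A, a phosphoinositide kinase gene, 351 to 404 kb away, of which the longest (690 bp) had a composite in its central 200 bp. Upstream the first was at 298 kb. With that peak set aside, the nearest to BMI1 was the one at 298 kb.

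**Figure D4:**
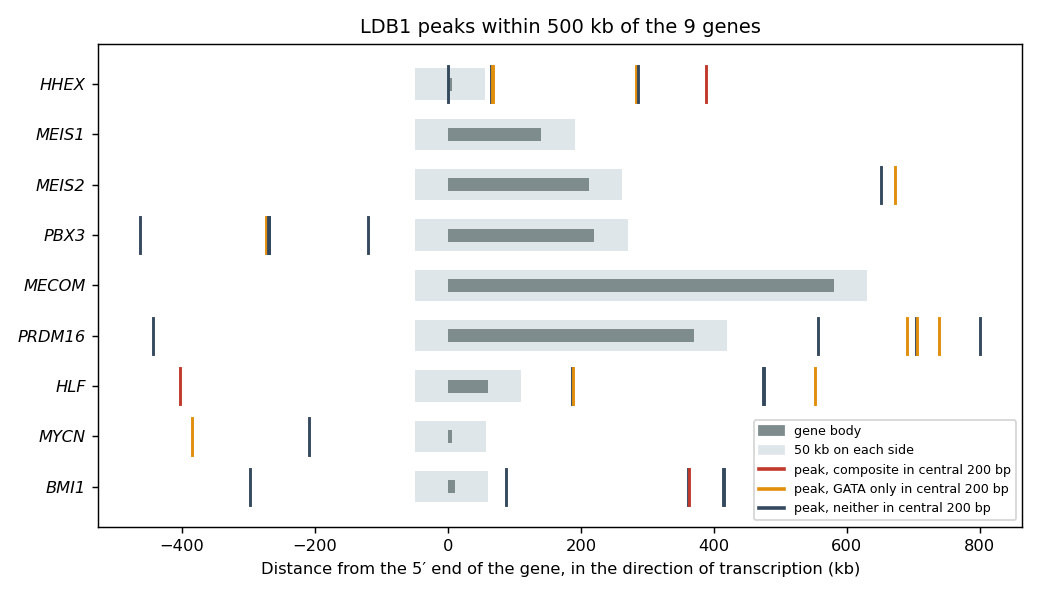
LDB1 peaks within 500 kb of each of the 9 genes, by the distance of the midpoint from the 5′ end of the gene in the direction of transcription (kb), coloured by the motifs in the central 200 bp. One peak, in HHEX, stands in a shaded window, the rows of MEIS1 and MECOM are empty, and the 6 peaks of PBX3 are all upstream.

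The 36 peaks within 500 kb of the 9 genes ranged from 237 to 2657 bp with a median of 413.5 bp, and 19 of them were below the median of all peaks. GATA was in the central 200 bp of 14 (38.9%, 24.8 to 55.1%), against 47.1% of all peaks, and the composite in 3 (8.33%, 2.87 to 21.8%), against 11.2%. RUNX was in 12 (33.3%, 20.2 to 49.7%), against 20.5%. The TAL1 E-box was in 4 (11.1%, 4.41 to 25.3%), against 33.8%, and of the 11 motifs counted this was the one whose interval lay below the share of all peaks. E-boxes outside the central 200 bp are not in this count. Several of the 36 peaks held one there, and over their whole length 60% of all peaks held one. The 500 kb distance was chosen after seeing the data, and peaks close together are not independent, so no lack of E-boxes is concluded. Of the 36 peaks, 9 (25%) lay within 3 kb of a TSS, against 35.6% of all peaks.

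Motifs of the factors themselves were also counted in these 36 peaks. The MEIS motif was in 9 (25%, 13.8 to 41.1%), against 15.3% of all peaks. The MYC E-box (CACGTG) was in 1, at PIP4K2A, against 3.41%. The PBX-HOX motif (TGATTNAT) and the HLF motif (TTACNTAA) were in 0 of the 36, beside 2.12% and 1.16% of all peaks, and CEBP (TTGCNNAA) was in 1, beside 7.47%. A match is a stretch of letters and does not show that the factor was there.

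Composites were present in the windows all the same. Results showed 162 of them, at least 5 in every window, or 6.47 per 100 kb against 7.65 per 100 kb of hg38. HLF had 9.99 per 100 kb, BMI1 9.97 and MEIS1 8.73, while PRDM16 had 1.7. Of the 162, 0 lay in a peak, which follows from the lack of a composite in the 1 peak of the windows. Of the 224764 in hg38, 2721 (1.21%, 1.17 to 1.26%) lay in a peak. At HHEX the nearest composite was in intron 3, 1910 bp from the intron peak. At MYCN it was in intron 2, 4124 bp after the gene start, at PBX3 at -1511 bp from it, and at MECOM in intron 1, 2808 bp after it.

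**Figure D5:**
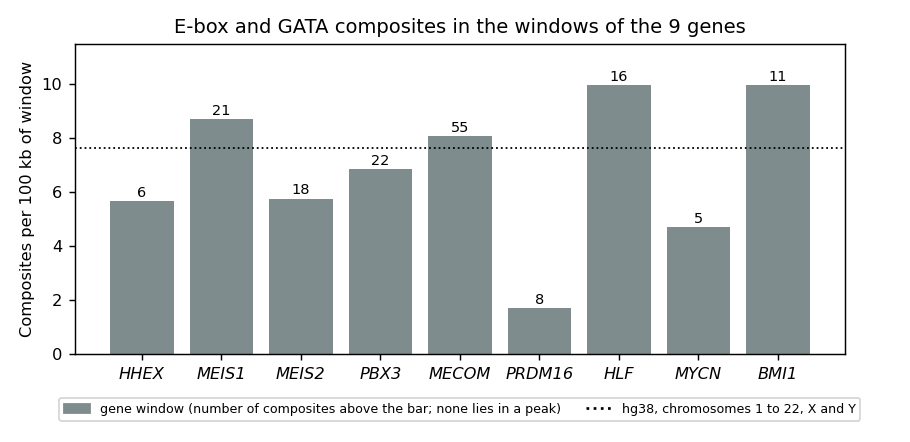
Composites of CTG and GATA per 100 kb (vertical axis) in the window of each gene, with the number of composites above each bar and the density in hg38 as a dotted line. MEIS1, MECOM, HLF and BMI1 stand above the line of 7.65 and PRDM16 lowest at 1.7.

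The promoters of the 9 genes were read from RefSeq on GRCh38.p14, from 250 bases before to 50 after the start RefSeq gives, and 8 were matched, without PRDM16. For MEIS1, PBX3, MEIS2 and MECOM that start lies inside the GENCODE gene body rather than at the gene start used for distances here. A GATA motif was in 1 of the 8 (MECOM), against 25% of 35116 promoters, and the composite in 0, against 1.34%. MECOM and MYCN had a TAL1 E-box, against 29.8%. MEIS1 had RUNX and ETS motifs, against 19.6% and 14.4%. MYCN and PBX3 had the MEIS motif, against 15.8%, and BMI1 had the MYC E-box, against 7.26%. No peak touched any of these 8 promoters, and the peak of HHEX began after the end of its promoter window.

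To place the 9 genes beside their relatives, 61 genes of the same families were counted with the same window. Of these, 28 (45.9%, 34 to 58.3%) had a peak, close to the 44.8% of coding genes. Among TALE homeobox genes, the family of MEIS and PBX, 4 of 11 had a peak, and PBX2 had 7 peaks up to 2598 bp long. DBP, a PAR factor like HLF, had 6, and it was the one of 3 PAR relatives with a peak. Of the MYC network, 8 of 11 had a peak, with 5 at MLXIP and 3 each at MAX, the partner of MYCN, and at MLX.

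Of 15 PRC1 genes other than BMI1, 9 had a peak, among them CBX8 with 5 and CBX2 with 4, which are neighbours and share peaks. Of 13 PRDM genes, 4 had one, led by PRDM8 with 7, and of 8 NKL homeobox genes, the class of HHEX, VENTX had 3 and TLX2 had 2. These counts stand beside the 44.8% of all coding genes, and in the TALE, PAR, PRDM and NKL lists most relatives had no peak. The difference between the 9 genes and their relatives was not tested.

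Of the genes of the LDB1 complex and its partners in blood, 9 of 9 had a peak, beside 44.8% of coding genes, with 54 peaks in all, of which TAL1 had 13 and LMO2 10. HOX genes, whose proteins pair with MEIS and PBX, had a peak in 15 of 39 (38.5%, 24.9 to 54.1%), near the share of all coding genes, all in the HOXB and HOXC clusters, where 8 peaks fell in the windows of neighbouring genes. These comparisons were chosen with the peaks known and describe this library alone.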

How the data were processed

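CUT&Tag libraries of NB4 cells were made by the authors with an LDB1 antibody and with IgG, 1 each. Per the labels and methods, paired-end reads were aligned to hg38 with Bowtie2 2.4.4 and peaks were called with MACS3 3.0 at a q-value limit of 0.01. Use of the IgG library as control and removal of duplicates are not given in the sources used here. Each deposited peak carried a start, an end and a length (bp), with no score or depth. The IgG library was not analysed here.

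Peaks were counted around genes of GENCODE 44, with the whole gene record as the body, and 20033 protein-coding gene records on chromosomes 1 to 22, X and Y as background. Motifs were searched on both strands in the 200 bp around the midpoint, and composites with a gap of 7 or 8 bases. Copies of the central 31 bases were counted in hg38 on both strands. Distances are from the gene body. Tools were pysam 0.24.0, numba 0.67.0, pandas 2.3.3, numpy 2.4.6 and matplotlib 3.10.9 under Python 3.11.15, and the counting was tested on simulated data.

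All 9 genes were named, each with its peaks where there were 5 or fewer, otherwise with the nearest, the longest and those with a composite in 200 bp. From each family list at most 3 genes were named, and 1 that this rule would name is not reported here. The members and lists were chosen with earlier results of these data known. Alternatives were other windows, longer peaks, peaks whose centre is unique in hg38, midpoint membership, merged peaks, other motif windows and other TSS sets. Windows of 200 and 500 kb and the lists of complex genes and HOX genes were chosen after seeing the data.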

Additional observations from a re-analysis of the deposited data

How the results depend on the processing

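Of 60 alternatives over 6 results, 45 stayed within the limit set for a change and 15 moved, and all 15 came from larger windows. With 100 kb on each side there were 5 peaks at 2 genes, 2 of them with GATA in the central 200 bp, with a median length of 388 bp. With 200 kb, chosen after seeing the data, there were 9 peaks at 5 genes, 3 with GATA, 2 within 3 kb of a TSS, and a median of 386 bp. With 500 kb, also chosen after seeing the data, there were 36 peaks at 7 genes, 14 with GATA, 3 with the composite, 9 within 3 kb of a TSS, and a median of 413.5 bp. The larger windows hold more sequence by construction. Windows of 3 and 10 kb, the longer peaks alone, peaks with a central sequence found once, midpoint membership and merging of peaks under 1 kb apart left the count at 1 peak, in HHEX. Windows of 3 and 10 kb had to keep this peak, which lies in the gene body, and the filters on peaks could drop it but not add others. Other motif windows left the counts with GATA and with the composite at 0, and the other TSS settings left that peak near a TSS. The motif window of 100 bp lies inside that of 200 bp and could not add a motif. Many of the 45 were thus bound to stay and do not measure how firm the results are. No paired analysis was possible because the LDB1 antibody and the IgG arm held 1 library each. Without scores or depth, a gene without a peak has no peak in this list, and weaker binding there could not be measured.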
